A study of Mus musculus with 18 samples.

Results

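Liver ILC1, the tissue-resident relatives of conventional NK cells, expressed Atp8a2, Asb2, Pdzd2, Adam19, Podnl1, Tmem273, Bmp7 and Tle2 at mean levels from 18.2 to 321 CPM (the reads of a gene relative to the scaled total of its library), while the CD49a+ NK cells of liver metastases held them at 0 to 9.87 CPM. These 8 genes, of 54309 gene identifiers in the lymphocyte table, were picked for high levels in ILC1 of metastasis-free liver (MFL) and near-zero levels in CD49a+ NK cells of liver metastases (LM). The levels in those populations chose the genes, so they are given as a description without a test. All 8 matched 1 gene each and all passed the low-count filter, and 5 of them (Atp8a2, Asb2, Pdzd2, Podnl1 and Bmp7) still passed it with the ILC1 libraries left out, while Adam19, Tmem273 and Tle2 passed only through ILC1.

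Total RNA was sequenced from type 1 lymphocytes of female mice whose livers carried metastases grown from MC38, a murine colon cancer cell line given by injection into the spleen at 8 to 10 weeks of age. On day 20, lineage-negative CD45+ NKp46+ cells were sorted by their integrins, with 3 libraries per population. Cells with CD49b but no CD49a gave the MFL NK libraries and, at the metastatic site, the LM CD49a- NK libraries, cells with CD49a but no CD49b were the ILC1 of MFL, and cells with both integrins gave the LM CD49a+ NK libraries. No agent or altered allele is named for these libraries, the labels give no strain, and the study's methods list C57BL/6J mice and name MC38 as a line of the C57BL/6 background. Each library came from a pool of 6 to 8 tissue samples, so no single mouse can be followed, and the titles of the LM CD49a+ NK libraries call them ILC1 while their cell type label calls them CD49a+ NK cells, which was used here. Metastases were digested with enzymes and metastasis-free liver was mashed through a filter, so site and dissociation cannot be told apart. No ILC1 library came from metastases and no CD49a+ NK library from metastasis-free liver. Between these populations, cell type, site and dissociation therefore cannot be told apart. A second experiment covered metastasis-associated macrophages (MAM) sorted as CD11b+ F4/80hi or F4/80int cells (F4/80low in the labels), with 3 libraries each. These too came from MC38 metastases on day 20, in mice of 8 to 10 weeks.

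NK cells and ILC1 are both innate lymphocytes that carry NKp46. Conventional NK cells circulate and carry the integrin CD49b, whereas liver ILC1 stay in the tissue and carry the integrin CD49a, which binds collagen. NK cells in tumors can take on CD49a and other ILC1 genes, and the study asked how the surroundings of a metastasis shape these lymphocytes.

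The RNA of the sorting integrins followed the sort for CD49a and less sharply for CD49b. Itga1, the gene of CD49a, was at 663 CPM in ILC1 and 134 in the CD49a+ NK cells of metastases. It was at 11.4 and 11.5 in LM CD49a- and MFL NK cells. Itga2, the gene of CD49b, spanned 299 to 376 CPM in MFL NK libraries and 241 to 333 in LM CD49a- NK libraries. LM CD49a+ NK libraries, sorted with CD49b, spanned 65.7 to 219 CPM, and ILC1 libraries, sorted without it, 25.3 to 54.2. Total counts per library lay between 8795721 and 14386834. The number of genes with at least 10 counts ranged from 9608 to 13218, with the lowest value in LM CD49a- NK replicate 2. Mitochondrial, ribosomal and small RNA made up 3.59% to 15.2% of the counts, with more in replicate 1 than in replicate 2 of every population. The part of this share in the levels was not tested. T cell markers, 11 genes in all, summed to 621 to 1035 CPM in the ILC1 libraries and to 95.9 to 258 CPM in the 9 NK libraries. Most of that ILC1 sum was Cd3g (472 CPM) and Trbc1 (231 CPM), and Trbc2 was at 101 CPM. By edgeR, Cd3g (adjusted p = 0.000129) and Trbc2 (adjusted p = 0.00564) were called higher in ILC1 than in MFL NK cells, and Trbc1 was not (adjusted p = 0.217). Cd3e was at 0.122 CPM, Cd4 at 3.29 CPM and Cd8a at 4.87 CPM in ILC1, and Cd5 and Cd6 were at or near 0 in every population. Cd4 and Cd8a had means of 0 to 0.0788 CPM in the NK populations. Macrophage markers, 10 genes, summed to 109.6 CPM in ILC1 replicate 2 and to 7.20 and 10.2 CPM in the other ILC1 libraries, with Lyz2 at 31.4 ± 46.7 CPM (SD, n = 3), Csf1r at 5.83 ± 8.71 and Adgre1 and Clec4f under 1 CPM on average. In ILC1 replicates 1 and 3 no gene of the 8 was under 75.1% of its ILC1 mean, which includes replicate 2. Asb2, Adam19 and Tmem273 were also measured in macrophages of metastases, as given below. The part of macrophage RNA in the ILC1 levels was not tested. Hepatocyte markers, 6 genes, summed to 34.8 to 91.8 CPM in ILC1 and 17.1 to 118.6 in MFL NK cells, against 0 to 6.35 in LM CD49a- and 0 to 13.1 in LM CD49a+ NK cells. Epithelial markers, also 6 genes, summed to 59.3 to 95.2 CPM across ILC1 libraries, 23.8 to 51.5 CPM across those of LM CD49a+ NK cells and 0 to 4.73 CPM across the other NK libraries. This sum was mostly Cdh1, called higher in ILC1 than in MFL NK cells by edgeR (55.8 against 0.0491 CPM, adjusted p = 0.000566), and Epcam, while Krt8, Krt18 and Krt19 were at or near 0 in ILC1. The part of these markers in the levels below was not tested, and in sorted bulk samples fewer cells of a type and less RNA per cell cannot be told apart.

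The stretches of DNA just upstream of 3 of the genes are shown because these genes mark the ends of the pattern: Adam19 and Tmem273 were at 0 in every LM CD49a+ NK library, and Podnl1 had the highest level there relative to ILC1. Each is the 250 bases before the start of the Ensembl canonical transcript on the strand of the gene, in GRCm39, at chr11:45946525-45946774 (Adam19, + strand), chr14:32507670-32507919 (Tmem273, + strand) and chr8:84852368-84852617 (Podnl1, + strand), with capitals marking any match to the motifs searched.
Adam19: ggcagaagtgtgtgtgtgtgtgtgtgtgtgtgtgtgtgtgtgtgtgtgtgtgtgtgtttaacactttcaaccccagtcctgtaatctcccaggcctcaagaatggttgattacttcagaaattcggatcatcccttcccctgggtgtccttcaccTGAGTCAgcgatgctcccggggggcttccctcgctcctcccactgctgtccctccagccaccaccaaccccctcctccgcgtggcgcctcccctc
Tmem273: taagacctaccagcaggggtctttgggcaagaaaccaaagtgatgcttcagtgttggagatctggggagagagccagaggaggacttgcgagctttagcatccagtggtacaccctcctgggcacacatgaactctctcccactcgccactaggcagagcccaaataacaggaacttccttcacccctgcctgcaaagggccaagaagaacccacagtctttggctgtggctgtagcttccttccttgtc
Podnl1: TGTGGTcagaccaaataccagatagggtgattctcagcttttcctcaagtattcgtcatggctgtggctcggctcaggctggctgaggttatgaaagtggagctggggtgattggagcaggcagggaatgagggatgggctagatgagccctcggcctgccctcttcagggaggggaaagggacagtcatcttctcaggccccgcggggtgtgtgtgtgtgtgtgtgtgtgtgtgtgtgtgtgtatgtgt
Letters of 4 motifs were searched on both strands in this window for each of the 8 genes. For Atp8a2, Asb2, Pdzd2 and Tle2 the window before the canonical transcript lies within the span of the gene. The T-box letters GGTGTGA and the ETS letters CAGGAAG were in the window of none of the 8 genes, against 2.88% and 9.84% of 13531 tested genes. The AP-1 letters TGANTCA were in that of Adam19, 95 bases before the start, against 4.74% of genes. The RUNX letters TGTGGT were in those of Podnl1, 250 bases before the start, and Pdzd2, 200 bases before it, against 13.0% of genes. The GC content of the 8 windows ran from 52.0% (Asb2) to 72.4% (Atp8a2), with a median of 55.2% over the tested genes. A match is a match of letters and no site of binding. The 8 genes lie on 7 chromosomes, and only Atp8a2 and Tmem273 share one, chromosome 14.

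**Figure D1:**
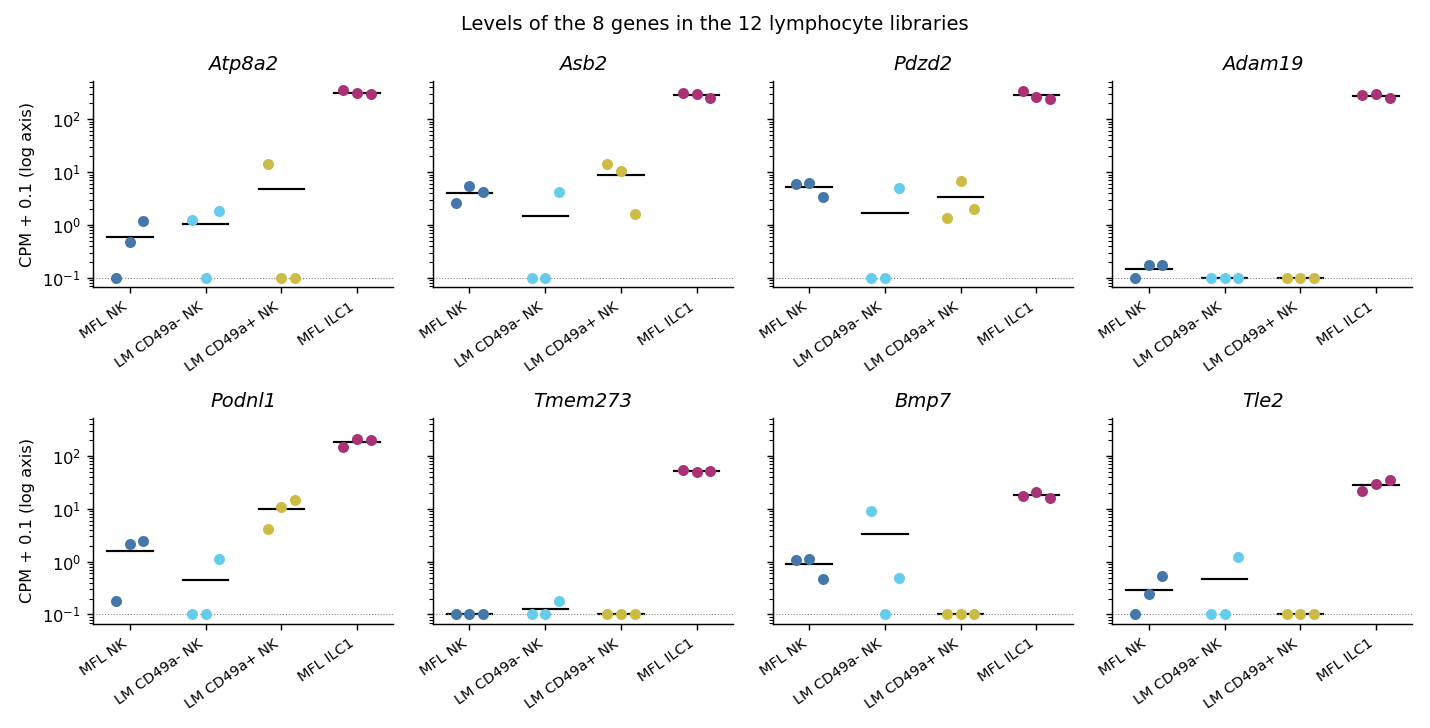
Levels of the 8 genes in each of the 12 lymphocyte libraries, as CPM plus 0.1 on a log axis, with 1 point per library, a black line at the mean of each population and a dotted line where the count is 0. For each gene the 3 MFL ILC1 libraries sit above all 9 NK libraries, and Adam19, Tmem273, Bmp7 and Tle2 sit on the dotted line in every LM CD49a+ NK library.

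Of the membrane genes, Atp8a2 (ENSMUSG00000021983.17, GRCm39 chr14:59875989-60434635, - strand) encodes a flippase, a P4-ATPase that moves phosphatidylserine to the inner leaflet of the membrane. It had 4151, 4247 and 3176 counts in ILC1 replicates 1, 2 and 3, against 0, 5 and 15 in MFL NK cells, 10, 0 and 22 in the LM CD49a- NK cells and 144, 0 and 0 in LM CD49a+ NK cells. All of its counts in LM CD49a+ NK cells thus came from replicate 1. The ILC1 level of 321 ± 27.3 CPM (SD, n = 3) was 69.1 times the LM CD49a+ NK mean of 4.65 ± 8.05 CPM.

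Adam19 (ENSMUSG00000011256.17, chr11:45946775-46038172, + strand) encodes a membrane-anchored metalloprotease of the ADAM family. It had 3376, 4072 and 2676 counts in ILC1, 0 in every LM CD49a+ and LM CD49a- NK library, and 0, 1 and 1 in MFL NK cells. Its ILC1 level of 279 ± 23.1 CPM was at least 1017-fold higher than in LM CD49a+ NK cells. This bound takes the limit of 3 counts per library that a count of 0 allows. The limit is 0.235 to 0.299 CPM in those libraries and covers counting error only.

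Tmem273 (ENSMUSG00000041707.9, chr14:32507920-32540635, + strand), a predicted transmembrane protein, showed a like pattern. It had 630, 692 and 541 counts in ILC1 and 0 in all NK libraries except LM CD49a- replicate 3, which had 1. At 51.8 ± 1.49 CPM it varied least among the ILC1 libraries, and it was at least 189-fold higher there than in LM CD49a+ NK cells.

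Asb2 (ENSMUSG00000021200.15, chr12:103283687-103334012, - strand) is a cytoplasmic gene of the set, the substrate receptor of a cullin-5 ubiquitin ligase that targets filamins for degradation. It had 3786, 4045 and 2706 counts in ILC1, against 30, 72 and 56 in MFL NK cells, 0, 0 and 52 in the LM CD49a- NK cells and 146, 132 and 15 in LM CD49a+ NK cells. The ILC1 level of 291 ± 32.8 CPM was 33.7 times the LM CD49a+ NK level of 8.65 ± 6.49 CPM. The libraries of LM CD49a+ NK cells lay on both sides of those of MFL NK cells.

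Pdzd2 (ENSMUSG00000022197.17, chr15:12359797-12740193, - strand), a large protein with several PDZ domains, had 4086, 3662 and 2557 counts in ILC1. It was at 73, 82 and 45 counts in MFL NK cells, at 0, 0 and 61 in LM CD49a- NK cells and at 13, 84 and 19 in LM CD49a+ NK cells. The ILC1 level of 286 ± 54.5 CPM was 88.2 times the LM CD49a+ NK level of 3.24 ± 2.90 CPM, and the NK populations overlapped.

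Tle2 (ENSMUSG00000034771.16, chr10:81410395-81427475, + strand) encodes a corepressor of the Groucho family, which is recruited by DNA-binding factors such as TCF, RUNX and HES proteins. It had 252, 393 and 373 counts in ILC1 and 0 in every LM CD49a+ NK library, with 0, 2 and 6 in MFL NK cells and 0, 0 and 14 in LM CD49a- NK cells. The ILC1 level was 28.5 ± 6.98 CPM, at least 104-fold higher than in LM CD49a+ NK cells.

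Among the secreted products, Podnl1 (ENSMUSG00000012889.9, chr8:84852618-84859468, + strand), a podocan-like small leucine-rich proteoglycan of the extracellular matrix, went partly against the description of the set. It had 1727, 2844 and 2127 counts in ILC1, 41, 138 and 149 in LM CD49a+ NK cells, 1, 28 and 32 in MFL NK cells and 0, 0 and 13 in LM CD49a- NK cells. Every LM CD49a+ NK library lay above every MFL NK and every LM CD49a- NK library. The levels were 185 ± 33.8 CPM in ILC1 and 9.87 ± 5.50 CPM in LM CD49a+ NK cells. MFL NK cells stood at 0.808% of the ILC1 level and LM CD49a+ NK cells at 5.32%. Of all 13594 genes tested, 7.06% were separated upward from MFL NK cells in this way and 5.72% from LM CD49a- NK cells.

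Bmp7 (ENSMUSG00000008999.8, chr2:172709805-172782410, - strand), a secreted ligand of the TGF-β superfamily that signals through BMP receptors and SMAD proteins, was the lowest of the 8 in ILC1, with 205, 288 and 170 counts (18.2 ± 2.58 CPM). It had 12, 14 and 5 counts in MFL NK cells and 0 in every LM CD49a+ NK library, at least 66.2-fold below ILC1. In LM CD49a- NK cells it had 82, 0 and 5 counts. Replicate 1 of that population thus reached 50.2% of the ILC1 mean, the highest share of any of the 8 genes in any NK library.

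Per kilobase of the canonical transcript, the order of the ILC1 levels changed. Asb2 was highest at 98.7 CPM per kb and Podnl1 next at 88.7, followed by Adam19 (43.5), Pdzd2 (26.6), Atp8a2 (24.9), Tmem273 (23.7), Tle2 (9.94) and Bmp7 (4.59). Neighbors in the middle of this order, from Pdzd2 to Tmem273, lay closer together than the spread of Pdzd2 between libraries.

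The levels of the set can be placed beside those of the ILC1 genes that the study names as higher in CD49a+ NK cells (Ahr, Gzmc, Inpp4b, Itga1, Sema6d, Socs2 and Tnfsf10), which were likewise chosen on these samples. Against MFL NK cells, edgeR called 5 of these 7 higher in LM CD49a+ NK cells, where 0.647% of all genes were called in either direction. Sema6d (adjusted p = 0.128) and Socs2 (adjusted p = 0.201) were not called. The 8 genes reached 0% (Adam19, Tmem273, Bmp7 and Tle2), 1.13% (Pdzd2), 1.45% (Atp8a2), 2.97% (Asb2) and 5.32% (Podnl1) of the ILC1 mean in LM CD49a+ NK cells. The other 7 reached from 13.8% for Sema6d, a transmembrane semaphorin, to 130% for Ahr, the aryl hydrocarbon receptor, with Itga1 at 20.2%, Tnfsf10, the gene of the death ligand TRAIL, at 17.1% and Gzmc, a granzyme, at 46.6%. The highest LM CD49a+ NK library of the 8 genes, 8.01% for Podnl1, exceeded the lowest of Sema6d. For all 8 genes every ILC1 library lay above every LM CD49a+ NK library, against 13.9% of genes tested, above every MFL NK library, against 12.2%, and above every LM CD49a- NK library, against 14.7%. Of the 8, 4 had 3 counts or fewer in every LM CD49a+ NK library, against 5.47%. Nothing is read from these counts, since they follow from how the genes were chosen.

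Distances were also taken on a log2 scale of CPM plus 1. Of the log2 distance from MFL NK cells to ILC1, LM CD49a+ NK cells covered 34.1% for Podnl1, 24.8% for Atp8a2 and 16.4% for Asb2. They covered 0% for Tmem273 and lay below MFL NK cells for Adam19 (-0.857%), Tle2 (-5.58%), Pdzd2 (-9.46%) and Bmp7 (-24.6%). The 7 other genes covered from 47.2% (Tnfsf10) and 53.8% (Sema6d) up to 111.7% (Ahr).

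**Figure D2:**
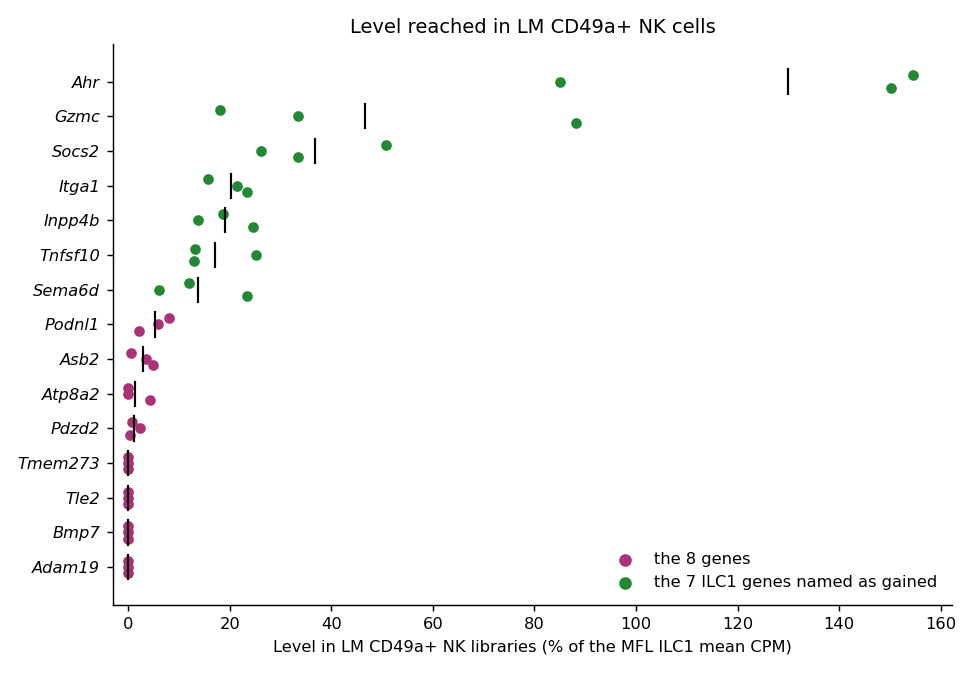
Level in each LM CD49a+ NK library as a percentage of the MFL ILC1 mean CPM, for the 8 genes and the 7 ILC1 genes that the study names as higher in CD49a+ NK cells (called gained in the legend), with 1 point per library and a black line at the mean. The means of the 8 genes run from 0% to 5.32% and those of the 7 genes from 13.8% to 130%.

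Other ILC1 genes lay as low as these 8. Of 6794 genes with an ILC1 mean at or above that of Bmp7, 44 were at or under 5.32% of the ILC1 mean in LM CD49a+ NK cells. The 8 genes are among these 44 by construction, since both limits are the extreme values of the set. Of the 185 genes at that level that were called higher in ILC1 than in MFL NK cells, the median stood at 40.3% of the ILC1 mean in LM CD49a+ NK cells (quartiles 20.1% and 63.3%). At or under 5.32% were 21 of them, which include the 7 called genes of the set. Just outside this limit was Septin8 at 5.42%, and well inside it but outside the set were Abca3 at 0%, Mmp9 at 0.399%, P2rx7 at 0.795% and Cxcr6 at 2.11%. The set is therefore a selection among such genes.

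**Figure D3:**
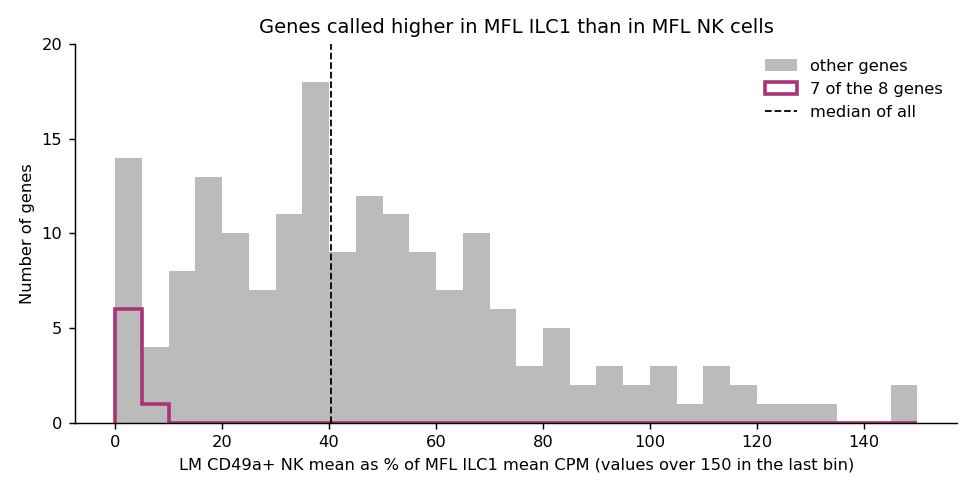
Number of genes by their LM CD49a+ NK mean as a percentage of the MFL ILC1 mean, in bins of 5%, for the 185 genes called higher in ILC1 than in NK cells of MFL with an ILC1 mean at or above that of Bmp7. The outlined bars count 7 of the 8 genes (Bmp7 was not called), the gray bars count the other genes, the dashed line marks the median of 40.3%, and values over 150% are in the last bin.

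The genes whose pattern over the 12 libraries was most like the mean of the 8 were Rln3 (relaxin 3), Abca3 (a lipid transporter), Glp1r (the GLP-1 receptor), Mmp9 (a matrix metalloproteinase) and Zmat4, with Pearson correlations of 0.992 for Rln3 and 0.991 for Abca3. The 12 points fall into 3 ILC1 and 9 NK libraries, and that separation enters the measure. None of these 5 was among the 5 most alike by Spearman correlation.

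The comparison of LM CD49a- NK cells with MFL NK cells contrasted neither population that defined the genes. It asks whether the set moved in conventional NK cells at the metastatic site. The fit took its spread from all 12 lymphocyte libraries, so the populations that defined the genes entered the p-values and SEs. Adam19, Tmem273 and Tle2 entered the fit only through ILC1 and are not read here: Adam19 and Tmem273 had 2 counts and 1 count in all 6 libraries of the pair. Of the 5 other genes, edgeR's quasi-likelihood test called none, none had an unadjusted p under 0.05, and DESeq2, which gave no adjusted p for Atp8a2, and limma-voom called none. Of all genes tested, 10 of 13594 or 0.0736% were called, so few calls were available to any group of genes. The adjusted p-values ran from 0.763 (Podnl1) to 0.991 (Atp8a2). The log2 differences were positive for Bmp7 (1.99 ± 1.72, SE) and Atp8a2 (0.97 ± 1.46), and negative for Asb2 (-1.42 ± 0.92), Pdzd2 (-1.57 ± 0.90) and Podnl1 (-1.94 ± 0.98), where the median of all genes was -0.09. The value of Bmp7 rests on LM CD49a- replicate 1, and without it the difference was -1.90 (adjusted p = 0.89). Without LM CD49a- replicate 3, Asb2 (adjusted p = 0.0359) and Pdzd2 (adjusted p = 0.0143) were called lower, and both were at 0 in the other LM CD49a- NK libraries. Over all alternatives the adjusted p reached from these values to 1, and for Bmp7 from 0.5 to 1. With only the populations compared in the fit, edgeR called none of the 5 genes, with a lowest adjusted p of 0.998.

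The LM CD49a- NK libraries differed among themselves in how many of the 8 genes were at 0. Replicate 2 had 0 counts for all 8 genes, replicate 1 for 6 and replicate 3 for 1. In MFL NK cells 4, 1 and 1 genes were at 0 in replicates 1, 2 and 3, and in LM CD49a+ NK cells 4, 5 and 5 were. LM CD49a- replicate 2 had the smallest total (8795721 counts) and the fewest genes with at least 10 counts (9608), and replicate 3 had the largest total (14386834) and 12601 such genes. Among the 8 are Adam19, Tmem273 and Tle2, which passed the filter only through ILC1. No share of all genes at 0 is given per library, so nothing is read from these zeros about the 8 genes. The part of library complexity in these zeros was not tested.

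Relatives of the 8 genes, and for some of them partners, were counted in lists: flippases, ASB ligases and filamins, ADAM proteases, the BMP pathway, Groucho corepressors and their partners, small leucine-rich proteoglycans and PDZ scaffolds. Of 76 such genes tested, none was called higher and 3 were called lower in ILC1 than in MFL NK cells by edgeR (11 had an unadjusted p under 0.05), while DESeq2 called 7, limma-voom 27 and edgeR 7 without LM CD49a- replicate 2. Over all genes, the main edgeR fit called 1.38% higher and 1.68% lower. In either direction over all genes, DESeq2 called 667, limma-voom 2645 and edgeR 562 without LM CD49a- replicate 2. Flna, the filamin A that links actin to integrins, fell from 1853 ± 55.2 CPM in MFL NK cells to 383 ± 30.1 in ILC1 (log2 difference -2.27 ± 0.26, adjusted p = 3.14e-05). Its level in LM CD49a+ NK cells was 1068 ± 260 CPM. Lef1, a TCF family factor that recruits Groucho proteins, fell from 120 ± 4.49 to 21.2 ± 1.71 CPM (log2 difference -2.50 ± 0.27, adjusted p = 1.95e-05). Atp11b, another flippase, fell from 308 ± 10.3 to 181 ± 16.9 CPM (log2 difference -0.76 ± 0.19, adjusted p = 0.0416).

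These 3 genes were also called lower in ILC1 than in LM CD49a+ NK cells, a call made for 2.29% of all genes, with adjusted p-values of 0.00246 (Flna), 5.23e-05 (Lef1) and 0.0228 (Atp11b). Tcf7, Hes1, Runx2 and Smad7 were further called lower in ILC1 in that contrast, and are named after their values were seen. Tcf7, a T cell factor, was at 126 ± 89.8 CPM in ILC1 and 412 ± 35.8 in LM CD49a+ NK cells (adjusted p = 0.0152). Between LM CD49a+ and MFL NK cells, edgeR called none of the 76 genes (9 had an unadjusted p under 0.05), against 0.647% of all genes. DESeq2 and limma-voom called 4 each, where over all genes they called 361 and 307.

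Most of the tested relatives were not called between ILC1 and MFL NK cells. Flna was the only call among 14 ASB and filamin list genes, Lef1 among 11 Groucho list genes and Atp11b among 12 flippase list genes, and none was called among 2 small leucine-rich proteoglycans and 14 PDZ scaffolds. Of the 12 other flippase genes and subunits, Tmem30a, the shared subunit of these flippases, was at 230 CPM in ILC1 and 163 in MFL NK cells (adjusted p = 0.537). Of 8 other ADAM list genes none was called, and Adam10 and Adam17 were at 138 and 68.9 CPM in ILC1, against 132 and 101 in MFL NK cells. Adam8, of the same list, was at 62.1 ± 23.9 CPM in ILC1 and 1.94 ± 1.76 in MFL NK cells (log2 difference 4.99 ± 1.51, adjusted p = 0.125). In the BMP pathway, 15 genes besides Bmp7 were tested and none was called between ILC1 and MFL NK cells. The type II receptor Bmpr2 was at 38.7 ± 16.9 CPM in ILC1 and 28.1 ± 3.32 in MFL NK cells, and Bmpr1a at 2.32 ± 2.02 and 2.55 ± 2.90 CPM. The other Groucho genes Tle3, Tle4 and Tle5 were at 297, 148 and 367 CPM in ILC1 and at 462, 136 and 225 CPM in MFL NK cells (lowest adjusted p = 0.367).

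The macrophage table listed 5 of the 8 genes, and Atp8a2, Pdzd2 and Bmp7 were not analysed there. These libraries had no part in choosing the genes, and 54.9% of 13759 genes were called between F4/80hi and F4/80int MAM (27.8% higher and 27.1% lower in F4/80hi). Among the 5 genes, 3 were called, a share near that background. Asb2 had 12.7, 17.0 and 22.6 CPM in the F4/80hi libraries and 33.3, 46.0 and 28.3 in the F4/80int libraries. It was lower in F4/80hi MAM by edgeR's quasi-likelihood test (log2 difference -1.04 ± 0.23, adjusted p = 0.00678).

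Tmem273 was higher in F4/80hi MAM, at 44.9, 48.6 and 45.5 CPM against 29.9, 35.7 and 38.0 (log2 difference 0.43 ± 0.10, adjusted p = 0.01). Podnl1 was low, at 2.07, 4.54 and 1.52 CPM against 1.84, 0.888 and 0.432, and the groups overlapped (log2 difference 1.34 ± 0.57, adjusted p = 0.0849). Its call was lost without F4/80hi replicate 2 (adjusted p = 0.317), F4/80int replicate 2 (adjusted p = 0.192) or F4/80int replicate 3 (adjusted p = 0.19), and over all alternatives the adjusted p ran from 0.0304 to 0.317.

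Adam19 was at 28.6, 24.6 and 34.9 CPM in F4/80hi MAM and 46.0, 49.6 and 24.7 in F4/80int MAM, overlapping groups that were not called (log2 difference -0.45 ± 0.25, adjusted p = 0.167). Without F4/80int replicate 3 it was called lower in F4/80hi MAM (log2 difference -0.70, adjusted p = 0.00897), as it was by DESeq2 (adjusted p = 0.0975), and the highest adjusted p of any alternative was 0.434. Tle2 was between 1.22 and 3.05 CPM in all 6 libraries and was not called (adjusted p = 0.741). Adam19 and Tmem273, at 0 in LM CD49a+ NK cells, were thus measured in the macrophages of metastases.

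**Figure D4:**
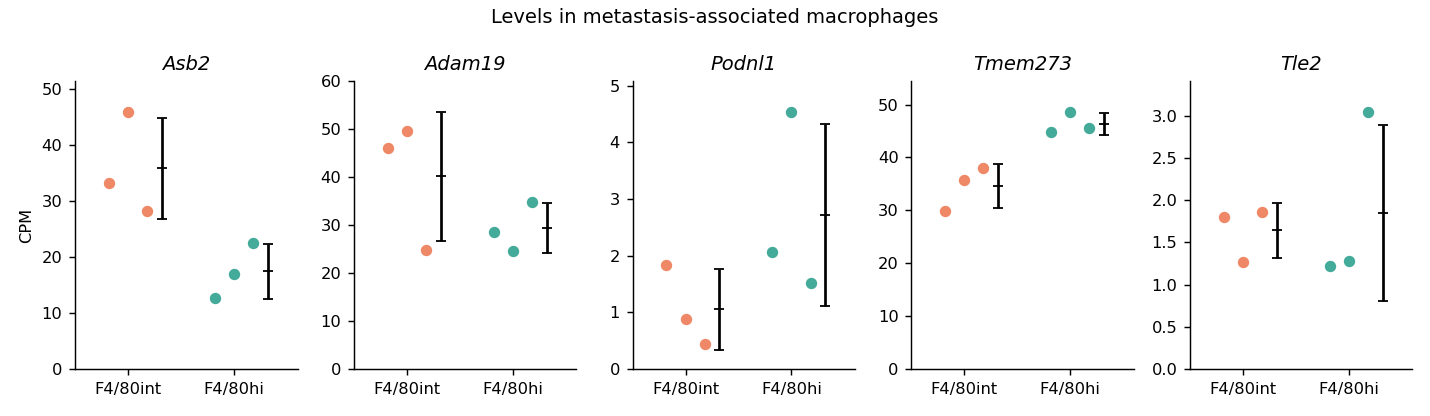
Levels of the 5 listed genes in the F4/80int and F4/80hi MAM libraries in CPM, each panel with its own axis from 0, with 1 point per library and the mean with SD as error bars (n = 3). The means in F4/80int and F4/80hi MAM were 35.9 and 17.4 CPM for Asb2 and 34.5 and 46.3 CPM for Tmem273.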

How the data were processed

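Per the labels, RNA libraries of the lymphocytes were made with a stranded total RNA kit for low input. Per the submitters' processing notes, reads were trimmed with Trim Galore and quantified with Salmon 1.5.0 (lymphocytes) and Salmon 1.10.0 (MAM) for GRCm39. The authors deposited estimated counts per gene, already whole numbers and without normalization. The lymphocyte table held 54309 identifiers and that of the MAM held 13759, with a lowest gene total of 37. Identifiers were named from the GENCODE annotation of GRCm39, which held 53700 and 13726 of them.

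Genes were kept by filterByExpr (13594 and 13759), scaled by TMM and compared with edgeR 4.0.16 (R 4.3.3) by quasi-likelihood, fitting the 12 lymphocyte libraries together and the 6 MAM libraries apart, with Benjamini-Hochberg adjustment over all genes and a threshold of 0.1. The SE is the log2 difference divided by the square root of F, and is approximate. DESeq2 1.42.0 and limma 3.58.1 were alternatives. The scripts were tested on simulated data.

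Total counts were 8795721 to 14386834 (lymphocytes) and 21278959 to 32267015 (MAM). Where every library of a group had 3 counts or fewer, folds are lower bounds against 3 counts per library. The study describes 3 independent sortings of pooled mice, and the labels do not tie the replicate numbers to them. The p-values weigh a difference against the spread between the libraries of a fit, which for the lymphocytes are pools and not single mice. The lowest chi-square per degree of freedom between replicates was 23.4, so no library was counted as a copy. With 3 libraries against 3 the smallest exact two-sided permutation p is 0.1, so single values got no such test. Named genes are the 8, the 7 named by the study, up to 3 called genes per list in ILC1 over MFL NK cells, called list genes in LM CD49a+ over MFL NK cells, the sorting genes, cell type markers and the 5 most alike, and other genes were named after their values were seen. The genes and lists were chosen with earlier results of these data known.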

Additional observations from a re-analysis of the deposited data

How the results depend on the processing

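The counts of genes called depended on the tool and the libraries. Between LM CD49a- and MFL NK cells, 10 genes became 156 with DESeq2, 104 with limma-voom, 158 without the low-count filter, 3 with only the populations compared, 4 at an adjusted p under 0.05 and 1 (without MFL NK replicate 1) to 110 (without LM CD49a- replicate 3) with 1 library left out. Between MFL ILC1 and LM CD49a+ NK cells, 486 became 1010, 935 and 774 under the first 3 of these, 322 at 0.05 and 257 (without MFL ILC1 replicate 3) to 708 (without LM CD49a- replicate 2) with 1 library left out. Between MFL ILC1 and MFL NK cells, 416 became 667 with DESeq2, 2645 with limma-voom, 1228 with only the populations compared and 268 (without MFL NK replicate 1) to 562 (without LM CD49a- replicate 2) with 1 library left out. Between LM CD49a+ and MFL NK cells, 88 became 361, 307 and 371 with DESeq2, limma-voom and no filter, 57 at 0.05 and 26 (without MFL NK replicate 1) to 168 (without LM CD49a- replicate 2) with 1 library left out. The cause was not tested.

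Of the 5 genes read between LM CD49a- and MFL NK cells, none was called, 1 (Pdzd2) without the filter, and 0 to 2 with 1 library left out. The log2 difference of Bmp7 there turned to -0.22 with limma-voom. With 1 library left out it ran from -1.90 (without LM CD49a- replicate 1) to 2.56. Tle2 is not among the 5 genes, since it passed the filter only through ILC1. It had 22 counts in all 6 libraries of the pair. Its log2 difference there ran from -4.27 (without LM CD49a- replicate 3) to 2.18 and is not read. In the MAM, the log2 difference of Tle2 ran from -0.40 (without F4/80hi replicate 3) to 0.40. Neither this turned value nor those of Bmp7 were called. Of the 5 genes in the MAM, 3 were called, 4 with DESeq2 and 2 to 3 with 1 library left out.

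Libraries with the same replicate number did not deviate together in their gene levels (correlations from -0.0943 to 0.061 over 18 pairs). The labels also tie no number to a sorting, so the numbers were not used as pairs. The share of mitochondrial, ribosomal and small RNA was nevertheless higher in replicate 1 than in replicate 2 of every lymphocyte population. With the replicate block the counts were 15, 484, 445 and 101 in the order above, none of the 5 genes was called between LM CD49a- and MFL NK cells, and 3 genes were called in the MAM, where the block was added after seeing the data. A count of 0 allows up to 0.22 to 0.334 CPM, by lymphocyte library.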
